A study of Mus musculus with 12 samples.

Results

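Wdfy1 encodes a protein with WD repeats and a FYVE zinc finger, and its transcript was described here in mouse forebrain with and without the epidermal growth factor receptor. It is 1 gene of 55357 in the count files, found by its symbol in each of the 12 libraries. The 12 libraries came from 6 pups at postnatal day 5, and each pup gave a rostral and a caudal piece of cortex with hippocampal formation. The mutants (cKO, animals T3, T6 and T80) carried homozygous floxed Egfr and a Nestin-driven Cre, which acts in neural progenitors and their descendants, so that cells of other origin in the tissue, such as microglia and vessel cells, keep an intact Egfr. The controls (T4, T8 and T70) are given as EgfrF/+ in one label and as WT in another. The labels do not say whether the controls carry Cre, so the loss of Egfr and the presence of Cre cannot be told apart in any comparison of genotype. The sources used here do not give the strain background.

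FYVE fingers are zinc-binding folds that recognise phosphatidylinositol 3-phosphate, the lipid that marks early endosomes, and WDFY1 is found on those membranes. In human and mouse cells WDFY1 is known as an adaptor that brings TRIF (Ticam1) to the Toll-like receptors TLR3 and TLR4, which sense double-stranded RNA and lipopolysaccharide. Wdfy2 is the close relative of Wdfy1 with the same arrangement of WD repeats and a FYVE finger.

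Wdfy1 was chosen by its measured values, namely its low CPM in cKO libraries, its small spread and its even level across the pieces, so its genotype and region values are given as a description with no test. Tests are given for its neighbours on chromosome 1 and for 4 lists of pathway genes.

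Wdfy1 (ENSMUSG00000073643.12) lies on the minus strand of chromosome 1 from 79679979 to 79753860 in build GRCm39, and its exons in the files merge into 17 blocks with 6488 bases. Its first exons overlap those of Mrpl44, a mitochondrial ribosomal protein gene on the plus strand, over 126 bases. The sources used here do not say whether the counting used strand, so reads from those bases cannot be assigned to one gene with certainty. Of 5669 distinct stretches of 50 bases, the length of a read, in the 14 Wdfy1 transcripts of GENCODE M21 (build GRCm38), 94 (1.66%) also occurred in a transcript of another gene, and 77 of them were shared with Mrpl44. Wdfy2 was not among the genes that shared such a stretch. The coding sequences of both genes, taken as the longest open reading frame in GENCODE M21, were identical at 67.6% of aligned bases, and their longest shared exact run was 20 bases. The stretch at positions 916 to 975 of each coding sequence is shown because it lies in the domain that both genes share. The 4 codons in capitals encode the amino acids HHCR, a signature of the FYVE finger:
Wdfy1: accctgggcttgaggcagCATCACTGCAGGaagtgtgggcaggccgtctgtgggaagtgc
Wdfy2: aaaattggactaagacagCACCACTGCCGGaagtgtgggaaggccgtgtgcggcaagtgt
The 2 stretches had the same base at 45 of 60 positions, so a read from this part of either transcript holds differences that separate them.

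Library totals ran from 43810458 to 87170315 counts. Mitochondrially encoded genes took 8.18% of the counts in the rostral piece of cKO animal T6, which stood apart, against 1.85% to 3.98% in the other 11 libraries. Ttr, a transcript abundant in choroid plexus, had 26689 counts in the rostral piece of cKO animal T3, against 3 to 26 in the other 5 rostral libraries. Egfr was at 5.73 to 14.7 CPM (CPM is the usual count relative to library size, scaled here by TMM over the 12 libraries) in the 6 cKO libraries and at 39.3 to 49.0 CPM in the 6 control libraries, so each library had the Egfr level of its label. By Xist and Y-linked transcripts, there were 1 female and 2 males among the cKO animals, against 2 females and 1 male among the controls.

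Wdfy1 transcripts were at about 60% of the control level in every cKO library. In the cKO rostral libraries Wdfy1 had 48.2 CPM in T3, 49.8 CPM in T6 and 52.1 CPM in T80, and in the control rostral libraries at 81.1 CPM in T4, 85.1 CPM in T8 and 85.9 CPM in T70. In the cKO caudal libraries it was at 49.7 CPM in T3, 47.0 CPM in T6 and 49.9 CPM in T80, and in the control caudal libraries at 81.7 CPM in T4, 80.9 CPM in T8 and 80.6 CPM in T70. The genotypes did not overlap, and the highest cKO library was at 64.6% of the lowest control library. The mean was 49.4 ± 1.73 CPM in cKO and 82.6 ± 2.33 CPM in control libraries (SD, n = 6 libraries from 3 animals each), and the cKO mean was 59.5% of control in the rostral and 60.3% in the caudal piece.

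On the summed counts of each animal's pieces, Wdfy1 was at 49.2 CPM in T3, 47.2 CPM in T6 and 51.0 CPM in T80 among cKO animals, against 81.8 CPM in T4, 83.3 CPM in T8 and 83.3 CPM in T70 among controls. All 3 cKO animals, of both sexes, lay below all 3 controls, of both sexes, and 14.3% of all genes tested were lower without overlap in this way. The log2 fold change of cKO over control was -0.75 (SE 0.06) on the summed counts, -0.74 (SE 0.08) in the rostral and -0.72 (SE 0.06) in the caudal piece. Across all genes, 3.75% separated the 6 cKO from the 6 control libraries without overlap, and 2.33% did so with cKO lower. In such bulk tissue, fewer cells that express Wdfy1 and less Wdfy1 RNA per cell cannot be told apart.

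**Figure D1:**
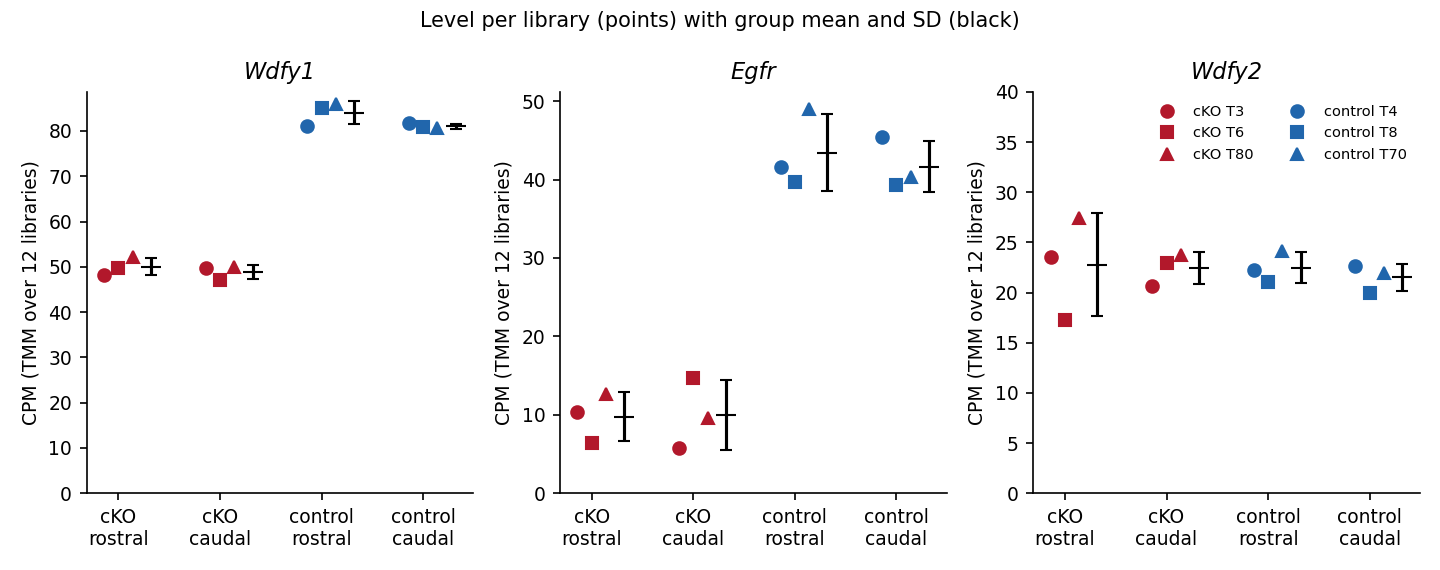
Level of Wdfy1, Egfr and Wdfy2 in CPM (y axis, from 0) in the cKO and control libraries of the rostral and caudal piece (x axis). Points are libraries, with 1 symbol per animal, and black bars are group means with SD (n = 3). Wdfy1 lies between 47.0 and 52.1 CPM in cKO and between 80.6 and 85.9 CPM in control libraries, Egfr varies more in cKO, and Wdfy2 overlaps between the genotypes.

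Wdfy2, Wdfy3 and Wdfy4 did not pass the test of genotype, where 0.179% of all genes did. Wdfy2 was at 22.6 ± 3.40 CPM in cKO and 22.0 ± 1.39 CPM in control libraries (SD, n = 6 libraries from 3 animals each), with a log2 fold change of 0.04 (SE 0.11) on the summed counts and an edgeR adjusted p of 0.865 (quasi-likelihood test, Benjamini-Hochberg over all genes). Wdfy3, a large scaffold of selective autophagy, was at a log2 fold change of 0.18 (SE 0.08, edgeR adjusted p = 0.342). Wdfy4, known for antigen cross-presentation in dendritic cells, was at 0.61 (SE 0.22, edgeR adjusted p = 0.279). As RPKM, which divides CPM by total count by the exonic length in kilobases, Wdfy1 stood at 7.57 ± 0.631 in cKO and 12.8 ± 0.196 in control libraries (SD, n = 6 libraries from 3 animals each). On that scale its level lay below that of Wdfy3 (16.9 RPKM in cKO, 15.3 RPKM in control) and above that of Wdfy2 (2.46 RPKM in cKO, 2.42 RPKM in control) and Wdfy4 (0.302 RPKM in cKO, 0.201 RPKM in control). These 4 ranges did not overlap in either genotype, so each neighbour in this order differed by more than its spread.

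Within a genotype, Wdfy1 varied little between libraries. The coefficient of variation of its CPM was 3.50% over the 6 cKO libraries and 2.83% over the 6 control libraries. Counting error alone, from 2280 to 3656 Wdfy1 counts per cKO library and 4440 to 6862 per control library, gives 1.77% in cKO and 1.36% in control. The SD of log2 CPM around the 4 group means was 0.0435 for Wdfy1, where the median over 21322 genes was 0.228 and 0.375% of them had a smaller SD. Among the 2235 genes with a mean CPM within 0.5 log2 units of Wdfy1, the median was 0.131, and 1.43% had a smaller SD. Within 1 genotype the rank was less extreme. Of these genes, 3.22% had a smaller SD over the 6 cKO libraries (0.0505 for Wdfy1, median 0.161). Over the 6 control libraries 9.13% did (0.0404 for Wdfy1, median 0.081). Wdfy1 was chosen in part for its small spread, so these ranks are a description. The tight spread among cKO libraries depended on the scaling: with CPM by total count, the cKO rostral library of T6 was at 41.6 CPM against 47.7 to 52.4 CPM in the other 5 cKO libraries, and the SD of log2 CPM in cKO was 0.126 in place of 0.0505. By total count the control libraries still lay at 81.2 to 85.0 CPM.

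**Figure D2:**
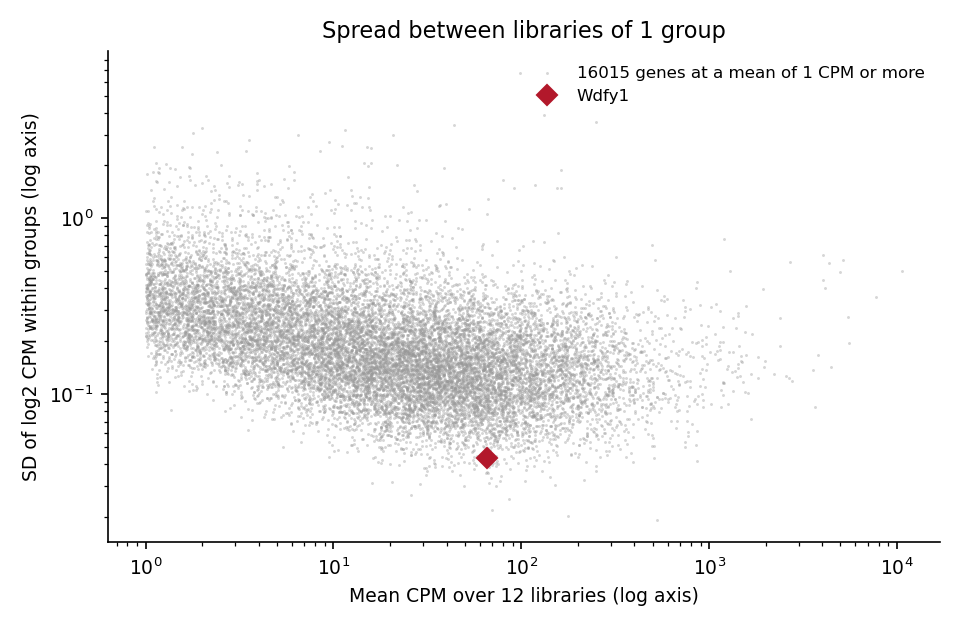
SD of log2 CPM around the 4 group means (y axis, log scale) against mean CPM over 12 libraries (x axis, log scale). Each grey point is a gene at a mean of 1 CPM or more and the red diamond is Wdfy1, which at an SD of 0.0435 lies near the lower edge of the genes of its level.

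The rostral and caudal pieces of an animal had nearly the same level of Wdfy1 in CPM scaled by TMM. Among cKO animals, the log2 difference of caudal minus rostral CPM came to 0.04 for T3, -0.08 for T6 and -0.06 for T80. Among controls it came to 0.01 for T4, -0.07 for T8 and -0.09 for T70. The caudal piece was thus the higher one in 2 animals and the lower one in 4. The mean difference was -0.03 ± 0.07 in cKO and -0.05 ± 0.05 in control animals (SD, n = 3 each), and in both genotypes the differences of single animals lay on either side of 0. The direction depended on the scaling. By total count the caudal piece was the higher one in T3, T6, T4 and T8 and the lower one in T80 and T70. The widest gap by total count was that of T6, at 47.7 CPM in the caudal and 41.6 CPM in the rostral piece.

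The chromosome 1 neighbours of Wdfy1 were then examined for the same shift. Of 54 other genes whose start lies within 2 Mb of that of Wdfy1, 20 had enough counts for the summed comparison, and 13 of these carry a gene name and not a model name. None of the 20 passed in cKO against control on the summed counts by edgeR (lowest adjusted p = 0.192), where 0.179% of all genes passed (0.0829% higher and 0.096% lower in cKO). At an unadjusted p under 0.05 there were 4 of the 20, where 15.4% of all genes had such a p. Of the 20, DESeq2 called 1 and voom 0, where over all genes DESeq2 called 803 and voom 99, against 41 in edgeR. Of the 20, 9 were higher and 11 lower in cKO, with a median log2 fold change of -0.05, against 0.02 over all genes tested. Within 1 Mb, 4 were higher and 9 lower (median -0.06). Within 5 Mb, 33 were higher and 46 lower (median -0.07), with 17 of 79 at an unadjusted p under 0.05. Within 10 Mb, 98 were higher and 98 lower. Whether the lean within 1 and 5 Mb exceeds that of other stretches was not tested. The genotypes did not overlap for 4 of the 20, a share close to the 26.0% of all genes. Of these 4, 3 were lower in cKO, where 14.3% of all genes were lower without overlap. In the separate pieces none of 19 tested neighbours passed in edgeR, where 0.0% of all genes passed in the rostral and 0.0821% in the caudal piece (0.0145% higher and 0.0676% lower). At an unadjusted p under 0.05 there were 2 in the rostral piece, against 9.49% of all genes, and 3 in the caudal piece, against 14.5% of all genes. DESeq2 called 1 neighbour in the rostral and 0 in the caudal piece, where it called 394 and 517 genes in all.

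Neither of the named genes that flank Wdfy1 passed. Mrpl44, whose first exon overlaps that of Wdfy1, was at 11.5 CPM in T3, 8.79 CPM in T6 and 12.1 CPM in T80, against 11.8 CPM in T4, 12.5 CPM in T8 and a level between these in T70. Animals T3 and T6 lay below the controls and T80 lay among them, and the log2 fold change was -0.16 (SE 0.12, edgeR adjusted p = 0.537). On the other side, Ap1s3, a subunit of the AP-1 clathrin adaptor, was at a log2 fold change of -0.05 (SE 0.24, edgeR adjusted p = 0.921) at a low level of 1.43 CPM.

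Serpine2, which encodes the secreted protease inhibitor protease nexin-1 and starts 0.0919 Mb from the start of Wdfy1, had the smallest p of the 20. Summed per animal it was at 165 CPM in T3, 120 CPM in T6 and 138 CPM in T80, against 192 CPM in T4, 182 CPM in T8 and 190 CPM in T70. The cKO animals all lay below the controls, which held for 14.3% of all genes, and were spread more widely than for Wdfy1. The log2 fold change was -0.41 (SE 0.11, edgeR adjusted p = 0.192), and DESeq2 called it with an adjusted p of 0.0337. In the rostral piece it was at 162 CPM in T3, 108 CPM in T6 and 133 CPM in T80, against 197 to 202 CPM in the controls, and in the caudal piece at 166, 140 and 142 CPM, against 165 to 184 CPM. The rostral log2 fold change was -0.57 (SE 0.15, edgeR adjusted p = 0.381, DESeq2 adjusted p = 0.0480), and without T6 it was -0.43 (SE 0.09, edgeR adjusted p = 0.0355). Over all genes DESeq2 called 394 in the rostral piece, and the edgeR fit without T6 called 1058.

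The remaining named neighbours did not pass. Upstream in coordinate order, Sgpp2 (a sphingosine 1-phosphate phosphatase) was at a log2 fold change of -1.28 (SE 0.47, edgeR adjusted p = 0.283) at a mean of 1.34 CPM, where control T8 at 0.809 CPM lay among the cKO animals at 0.546 to 1.14 CPM. Farsb (a subunit of phenylalanyl-tRNA synthetase) was at -0.15 (SE 0.07), Acsl3 (a long-chain acyl-CoA ligase) at 0.06 (SE 0.07), Utp14b at 0.17 (SE 0.11), Kcne4 (a potassium channel subunit) at -0.14 (SE 0.28) and Scg2 (secretogranin II of neuronal dense-core vesicles) at 0.46 (SE 0.26). Scg2 was at 196 CPM in T6, against 84.7 to 117 CPM in the other 5 animals. On the far side, Fam124b was at 0.03 (SE 0.16), Cul3 (the scaffold of a ubiquitin ligase) at 0.08 (SE 0.09), Dock10 at -0.06 (SE 0.12) and Nyap2 at 0.10 (SE 0.08). The nearest tested and named genes outside the window, Epha4 at -2.34 Mb and Irs1 at 2.53 Mb, were at 0.01 (SE 0.10) and 0.18 (SE 0.06).

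**Figure D3:**
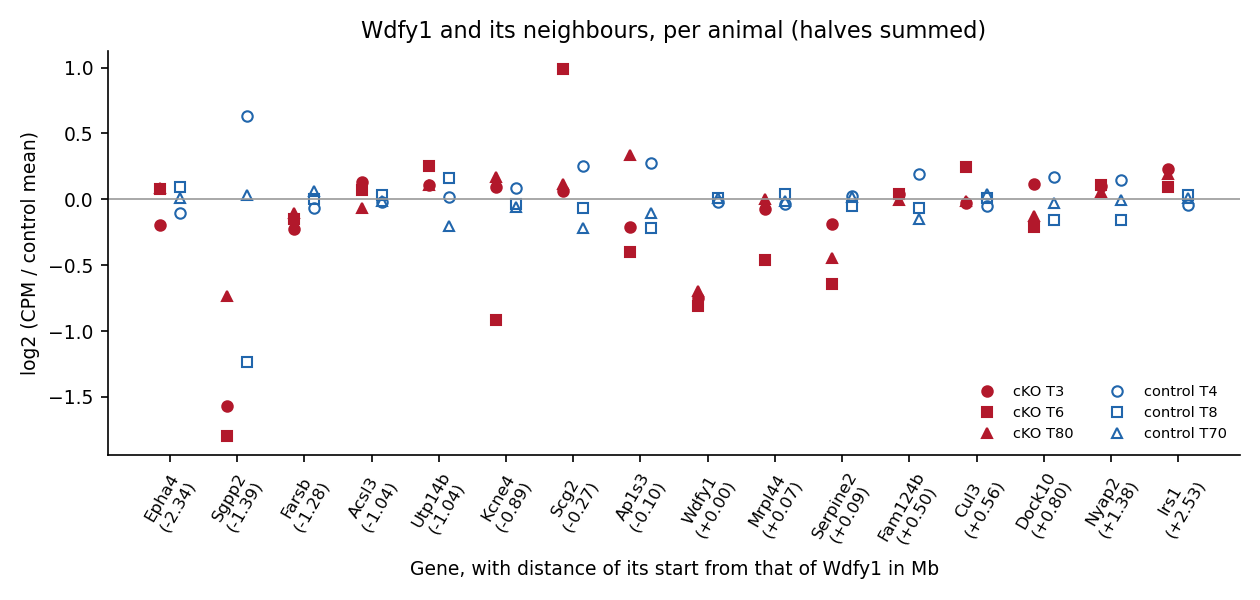
Summed level of each named and tested gene within 2 Mb of Wdfy1, and of the first such gene outside on each side, as log2 of CPM over the control mean (y axis). Genes are in coordinate order with the distance in Mb (x axis), and points are the 3 cKO animals (red, left) and the 3 control animals (blue, right). The 3 cKO animals of Wdfy1 lie together near a log2 value of -0.75, those of Nyap2, Fam124b and Farsb lie together nearer to 0, and those of Sgpp2, Scg2 and Serpine2 are scattered.

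Over a wider stretch no other gene at 10 CPM or more was as low as Wdfy1. Within 10 Mb, 196 other genes were tested, with a median log2 fold change of 0.00, and none passed in edgeR, with 37 at an unadjusted p under 0.05, where 15.4% of all genes had such a p. As low as Wdfy1 or lower were 7 of them, each at a mean of 3.07 CPM or less. Among the 83 genes at 10 CPM or more in that stretch, the lowest log2 fold change was -0.59 (SE 0.17, edgeR adjusted p = 0.216, for 2810459M11Rik at 6.29 Mb) and the median of absolute values was 0.116. On all of chromosome 1, 1476 other genes were tested and 3 passed in edgeR, where 0.179% of all genes did, and none of the 3 was closer than 82.8 Mb. They were Myoc (-2.32), Kcnj10, the potassium channel of astrocyte membranes (-0.72), and the interferon-inducible Ifi207 (2.14).

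**Figure D4:**
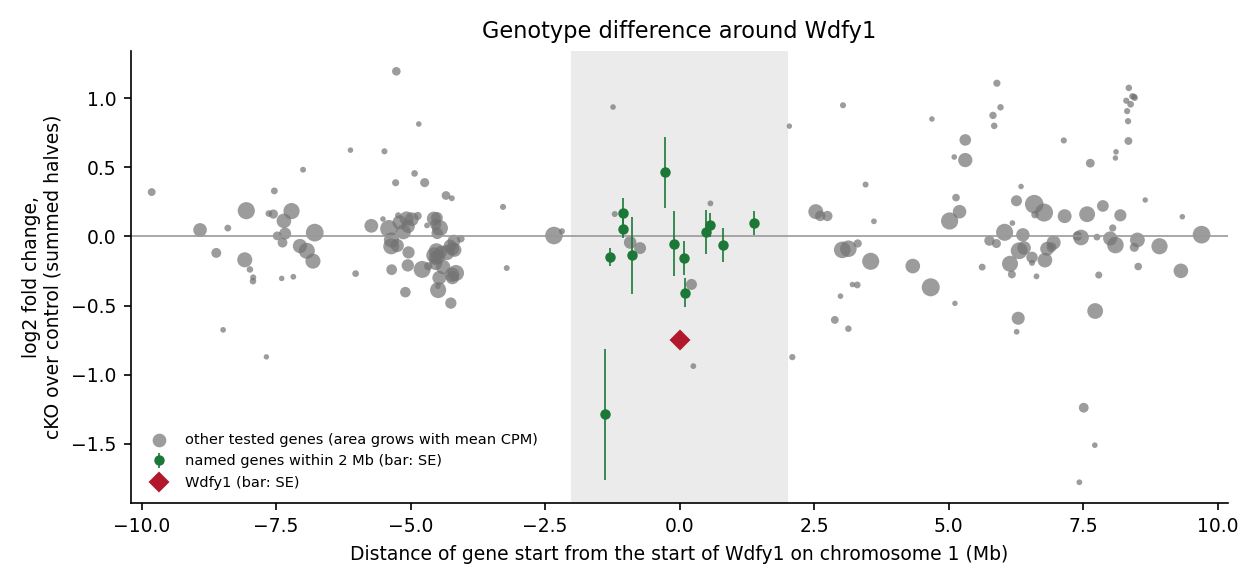
Log2 fold change of cKO over control on the summed counts (y axis) against the distance of each gene's start from that of Wdfy1 (x axis, Mb) for the genes tested within 10 Mb on chromosome 1. The red diamond is Wdfy1 at -0.75, green points with SE bars are named genes within 2 Mb (shaded), and grey points are the others, with a larger area for a higher mean CPM. The other points as low as Wdfy1 are small, and larger points lie above it, among them Serpine2 at -0.41, Ngef at -0.54 and Scg2 at 0.46.

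Between regions of the control, 2 of 19 neighbours passed the edgeR test, where 12.2% of all genes did (6.3% higher and 5.88% lower in the caudal piece). Ap1s3 was at 1.90 ± 0.160 CPM in the caudal and 0.949 ± 0.290 CPM in the rostral piece (SD, n = 3 animals), a log2 fold change of caudal over rostral of 1.01 (SE 0.21, edgeR adjusted p = 0.0119). Serpine2 was lower in the caudal piece, at 176 ± 9.72 CPM against 200 ± 2.21 CPM in the rostral piece (log2 fold change -0.19, SE 0.05, edgeR adjusted p = 0.0379). With any 1 control animal left out Serpine2 no longer passed, and Ap1s3 passed without T4 (1.20, SE 0.21, edgeR adjusted p = 0.0142) but not without T8 or T70, where 0 of 19 neighbours did. With the animal as a block Scg2 passed as well, at 0.51 (SE 0.08, edgeR adjusted p = 0.00479). In cKO no neighbour passed between regions in edgeR, with 0 of 19 at an unadjusted p under 0.05 and 0 called by DESeq2, where 0.0% of all genes passed and 1.66% had an unadjusted p under 0.05. The interaction of genotype and region gave 0 of 20 in edgeR, 0 at an unadjusted p under 0.05 and 0 in DESeq2, where 0.0% of all genes passed and 3.55% had an unadjusted p under 0.05.

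Genes that work with WDFY1 or bear the same domain were read from 4 lists. In the TLR3 and TLR4 list, none of 17 tested members passed in cKO against control on the summed counts by edgeR, where 0.179% of all genes passed, and 4 were at an unadjusted p under 0.05, where 15.4% of all genes were. In DESeq2, which called 803 genes in all, Cd14 passed, and voom called 0 of the 17. The median log2 fold change was 0.21, with 14 of 17 members higher, against a median of 0.02 over all genes. Tlr3, the endosomal receptor for double-stranded RNA, was at 4.98 ± 0.0479 CPM in cKO and 4.93 ± 0.325 CPM in control animals (SD, n = 3 each, log2 fold change 0.02, SE 0.10). Tlr4 was at 0.46 (SE 0.23, edgeR adjusted p = 0.375) and Ticam1, the adaptor TRIF itself, at 0.25 (SE 0.12, edgeR adjusted p = 0.358).

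The 4 members of this list with the smallest p were Cd14, Ly96, Ticam2 and Ripk1, and none passed in edgeR. Cd14, a co-receptor for lipopolysaccharide, was at 1.39 ± 0.377 CPM in cKO and 0.592 ± 0.212 CPM in control animals (SD, n = 3 each), a log2 fold change of 1.24 (SE 0.32, edgeR adjusted p = 0.185). Ly96, which encodes the lipopolysaccharide-binding MD-2, was at 0.61 (SE 0.17, edgeR adjusted p = 0.213) and Ticam2, the adaptor TRAM, at 0.87 (SE 0.26, edgeR adjusted p = 0.233). Both were at low levels, with means of 0.80 CPM in cKO and 0.53 CPM in control animals for Ly96, and 1.06 and 0.58 CPM for Ticam2. Ripk1, a kinase downstream of TRIF, was at 0.21 (SE 0.08, edgeR adjusted p = 0.300). Beside these values, the summed level of the 7 microglial markers was 83.2 to 219 CPM in cKO rostral and 143 to 160 CPM in cKO caudal libraries, against 108 to 144 CPM in control rostral and 121 to 153 CPM in control caudal libraries. None of the 7 was at 0, 5 of them were higher in cKO, and their part in the values of the list was not tested.

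No gene of the 3 lists around the lipid that FYVE fingers bind passed the test of genotype, where 0.179% of all genes did and 15.4% had an unadjusted p under 0.05, and voom called 0 in each. Of 28 other FYVE genes, 0 passed on the summed counts in edgeR (4 at an unadjusted p under 0.05, and 0 in DESeq2), with a median log2 fold change of 0.03. Those with the smallest p after Wdfy4 were Eea1, an early endosome tether (0.34, SE 0.13), Fgd4, an exchange factor for Cdc42 (0.18, SE 0.08), and Zfyve21 (-0.42, SE 0.18). Of 17 genes listed for the turnover of phosphatidylinositol 3-phosphate, 0 passed in edgeR (1 at an unadjusted p under 0.05, and 0 in DESeq2), with a median of -0.03. The myotubularin relatives Mtmr9 (-0.23, SE 0.09) and Mtmr7 (-0.14, SE 0.06) had the smallest p, followed by Mtmr1 (0.12, SE 0.07) and Fig4 (-0.12, SE 0.07). Pik3c3, the kinase that makes the lipid, was at 40.8 ± 2.54 CPM in cKO and 40.4 ± 1.29 CPM in control animals (SD, n = 3 each). Of 12 early endosome genes, 0 passed in edgeR (2 at an unadjusted p under 0.05, and 0 in DESeq2), with a median of -0.02. Vps45 (-0.17, SE 0.06), Appl2 (0.29, SE 0.12), Vps8 (-0.26, SE 0.12) and Tgfbrap1 (0.11, SE 0.08) had the smallest p there.

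Between the control regions 3 of 28 FYVE genes and 1 of 12 early endosome genes passed in edgeR, where 12.2% of all genes did, and DESeq2 called these and Zfyve28. Of the TLR3 and TLR4 list 0 of 17 passed in edgeR (6 at an unadjusted p under 0.05, and Traf3 called by DESeq2). Of the genes listed for the turnover of the lipid 0 of 17 passed (4 at an unadjusted p under 0.05, and 0 in DESeq2). Over all genes 25.8% had an unadjusted p under 0.05 between the control regions, and DESeq2 called 2833 genes there. The myeloid exchange factor Fgd2 was at 4.78 ± 1.06 CPM in the caudal and 1.42 ± 0.278 CPM in the rostral piece (SD, n = 3 animals), a log2 fold change of 1.75 (SE 0.19, edgeR adjusted p = 0.00031). Fgd5, known from endothelium, was higher in the caudal piece by 0.39 (SE 0.09, edgeR adjusted p = 0.0230), as was Appl2, an effector of the endosomal GTPase Rab5, by 0.37 (SE 0.06, edgeR adjusted p = 0.00396). Rufy2 was lower there (-0.17, SE 0.05, edgeR adjusted p = 0.0488). These 4 genes, Zfyve28 and Traf3 were named after their values were seen, as the members of the lists that passed in edgeR or DESeq2.

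The genes most like Wdfy1 over the 12 libraries were then ranked by correlation. Likeness was Pearson's r of log2 CPM over the 12 libraries, which come from 6 animals and form 2 separate genotype levels for Wdfy1, among 12877 named autosomal genes at a mean of 1 CPM or more. It is a description without a test, since a high r largely records a gap between the genotypes. The highest r belonged to Hbegf, which encodes a ligand of the Egfr protein, at 0.963. Hbegf averaged 14.7 ± 0.340 CPM in cKO (14.2 to 15.2 CPM) and 18.7 ± 0.627 CPM in control libraries (18.1 to 19.8 CPM; SD, n = 6 libraries from 3 animals each). Its genotypes did not overlap, and its gap was smaller than that of Wdfy1, with a log2 fold change of -0.35 (SE 0.07).

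Next came Pllp, a myelin membrane protein (r = 0.951, 5.05 to 6.10 CPM in cKO, 7.88 to 10.6 CPM in control), and Sstr1, a somatostatin receptor (r = 0.947, 26.4 to 33.2 CPM in cKO, 37.2 to 45.9 CPM in control). Egfr itself was the fourth of the list, at r = 0.942. The others were the desaturase relative Fads3 (0.940), the mitochondrial channel Vdac1 (0.939), the oligodendrocyte factor Olig1 (0.936), the AMP deaminase Ampd3 (0.934), the cysteine dioxygenase Cdo1 (0.932) and Dmrta1 (0.932). For all 10 the genotypes did not overlap, against 3.75% of all genes, but the choice by r largely fixed this. None of the 10 lies on chromosome 1. That chromosome holds 3445 of all 55357 genes, so a list of 10 is too short to show a lack of genes from it. The most opposite genes were Helq (-0.935), the heme oxygenase Hmox1 (-0.929), Krit1 (-0.925), Zc3h11a (-0.918, on chromosome 1 at 53.9 Mb from Wdfy1) and the imprinting regulator Zfp57 (-0.918). Among the neighbours, Serpine2 had the highest r, at 0.786, which was rank 343, and Farsb followed at 0.681.

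**Figure D5:**
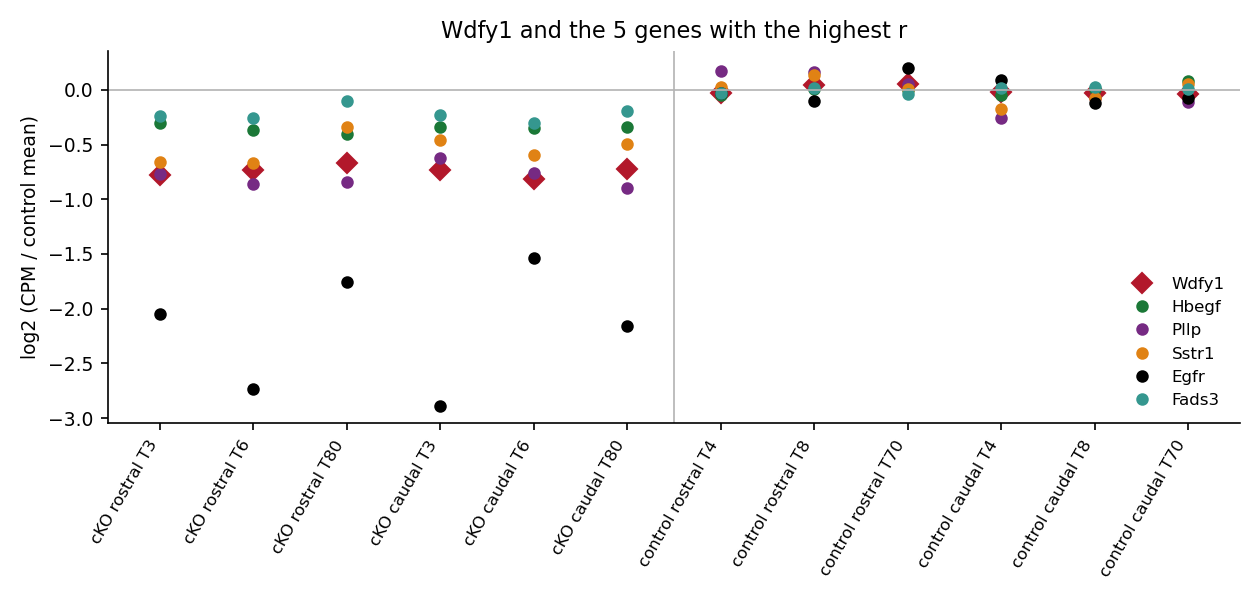
Log2 of CPM over the control mean (y axis) of Wdfy1 (red diamonds) and of the 5 genes with the highest r with it (circles) in the 6 cKO libraries (left) and the 6 control libraries (right). Wdfy1, Pllp and Sstr1 lie well below the control mean in the cKO libraries, Hbegf and Fads3 lie less far below it, and Egfr lies farther below with a wider spread.

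Around the group means, where the genotype gap is removed, other genes had the highest r with Wdfy1. The highest r of these deviations over the 12 libraries was 0.931 for Lnpk, a protein of endoplasmic reticulum junctions, followed by the myristoyltransferase Nmt2 (0.925), Nucks1 (0.921), the histone methyltransferase Nsd2 (0.916) and the mitochondrial methionyl-tRNA synthetase Mars2 (0.905). Nucks1 and Mars2 lie on chromosome 1, at 52.2 and -24.4 Mb from Wdfy1. The deviations of Wdfy1 are small, with an SD of 0.0435, and share the scaling of each library with those of the other genes. The genes named are the highest of 12877, and the r that chance alone would give among so many was not tested.

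Sums of markers of the oligodendrocyte lineage were lower in cKO, as was Wdfy1: of 6 precursor markers 5 were lower and 2 passed the edgeR test, and of 8 oligodendrocyte markers 8 were lower and 1 passed, where 0.096% of all genes passed with cKO lower. The summed level of the 6 precursor markers was 287 to 424 CPM in cKO rostral and 315 to 391 CPM in cKO caudal libraries, against 497 to 545 CPM in control rostral and 400 to 467 CPM in control caudal libraries. That of the 8 oligodendrocyte markers was 90.0 to 149 CPM in cKO rostral and 106 to 123 CPM in cKO caudal libraries, against 211 to 238 CPM in control rostral and 178 to 187 CPM in control caudal libraries. Both sums lay lower in the caudal than in the rostral control libraries. Wdfy1 was at 81.07 ± 0.546 CPM in the caudal and 84.05 ± 2.58 CPM in the rostral control libraries (SD, n = 3 animals). Of 10 astrocyte markers 9 were lower in cKO and 1 passed as lower, with a median log2 fold change of -0.23. Their sum overlapped between the genotypes (934 to 2468 CPM in cKO rostral and 2123 to 2861 CPM in cKO caudal libraries, against 2158 to 2420 CPM in control rostral and 2460 to 2790 CPM in control caudal libraries), as did that of 10 neuronal markers (7225 to 9769 CPM in cKO, 7564 to 8482 CPM in control). None of these markers was at 0, and their part in the level of Wdfy1 was not tested.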

How the data were processed

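The authors deposited 1 file per library with estimated counts per gene, of which 9.69% to 14.3% were fractional. Per the submitters' processing notes, STAR 2.7.8a and featureCounts 2.0.3 were used with build GRCm39; the sources used here do not give the annotation release, the strand setting or the treatment of multiply aligned reads. Values were rounded to whole numbers before testing, with the count tests kept. Libraries were made with the KAPA mRNA HyperPrep kit, per the labels' protocols.

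Each comparison was fitted on its own groups with edgeR 4.0.16 in R 4.3.3 (filterByExpr, TMM, robust quasi-likelihood F test, Benjamini-Hochberg adjustment over all genes tested, threshold 0.05). The SE of a log2 fold change was taken as |log2 fold change| over the root of its F statistic. CPM per library was scaled by TMM over 12 libraries, and CPM per animal by TMM over the 6 summed profiles. Likeness used log2 CPM with a prior count of 2. Alternatives were DESeq2 1.42.0, limma 3.58.1 (voom with duplicateCorrelation), other scalings and filters, left-out animals, sex as a covariate, the animal as a block, and other windows; 2 fits without single rostral libraries were added after the data were seen. Pieces with the same T number in the labels' titles were taken as the same animal; the deviations of an animal's 2 libraries from their group means correlated across genes at r = -0.00319 to 0.453. P-values of genotype measure the spread between 3 animals per group. The main fits between regions and of the interaction had no term for the animal, so its 2 pieces entered as separate libraries. The fits were run on simulated counts, drawn independently with the same dispersion for all genes. That run did not cover a link between an animal's pieces or a library that stands apart.

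Wdfy1, the window, the lists and the naming rules (all named tested genes within 2 Mb and the next on each side, the 10 highest and 5 lowest r, the 5 highest residual r, and the 4 members of each list with the smallest p) were chosen with earlier results of these data known. Wdfy2, Wdfy3, Tlr3, Tlr4, Ticam1, Pik3c3, Ngef and the chromosome 1 genes that passed were named outside these rules after their values were seen.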

Additional observations from a re-analysis of the deposited data

How the results depend on the processing

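The log2 fold change of Wdfy1 in cKO against control stayed between -0.77 and -0.72 on the summed counts, between -0.78 and -0.72 in the rostral and between -0.74 and -0.70 in the caudal piece under all alternatives run. No neighbour passed on the summed counts or in the caudal piece under any of them, except Serpine2 with DESeq2 on the summed counts (1 call). In the rostral piece Serpine2 was the 1 neighbour called by DESeq2 and the 1 called without T6 (edgeR adjusted p = 0.0355); with the other animals left out the count was 0. Between control regions the 2 calls became 10 with a window of 5 Mb, where 71 genes were tested, and ranged from 0 (without T8 or T70) to 2 with animals left out; the 2 without T4 were Ap1s3 and Scg2.

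The count over all genes depended on the fit. On the summed counts edgeR called 41, against 803 with DESeq2, 320 without a filter on low counts, 1 with sex as a covariate, 99 with voom, 122 without the rostral library of T6 and 73 without that of T3; with animals left out it ranged from 1 (without T4 or T8) to 685 (without T6), with 2 without T70 and 18 without T80. In the rostral piece the 0 calls became 394 with DESeq2, 45 without a filter and 101 in 1 fit over 12 libraries, and ranged from 0 to 1058 with animals left out (1058 without T6, 7 without T3). In the caudal piece the 17 calls became 517, 326 and 1 under the same 3 alternatives and 2 with sex as a covariate, and ranged from 0 (without T4, T8 or T80) to 162 (without T6). Between control regions 2492 genes passed, and 1079 to 1690 with animals left out. Between cKO regions DESeq2 called 4 in place of 0. For the interaction it called 14, edgeR without a filter 2, and edgeR with animals left out 0 to 475 (475 without T6). With the replicate block the control regions gave 3144 calls and the cKO regions and the interaction 0; the block changed no call other than that of Scg2 among the neighbours.

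Of the 10 genes most like Wdfy1, 0 were among the 10 with the highest Spearman rho, and 2 (without T6) to 8 stayed when 1 animal was left out, so the order within that list is not stable. The cause of these shifts was not tested. With 3 animals per genotype a small shift of a neighbour would not be detectable, in particular for those near 1 CPM.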
